A study of Mus musculus with 6 samples.

Results

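The 2 coronal brain sections of 18-month-old mice were compared with the 2 sections of 6-month-old mice, which together are 4 of the 6 sections of a spatial RNA sequencing study of the ageing mouse brain. Visium captures RNA from a frozen section on an array of barcoded spots. A spot is a small region that can hold several cells, and each captured transcript is counted once by its unique molecular identifier (UMI). UMIs were summed over every spot with at least 500 UMIs, so that the whole section was the unit of measurement, and 10912 of the 16741 spots of the series entered the comparison. The 6-month group is called young below and the 18-month group middle, as in the labels. The 21-month group (old) was not part of the comparison itself. It was kept in the model to help estimate the spread, and so also entered the filter on low counts and the scaling of totals.

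All groups were male mice of the inbred strain C57BL/6J, with 2 males per age and 1 section per replicate, and the labels name no transgene, deletion or treatment. Brains were frozen, embedded in OCT and cut at 16 µm close to Bregma -1.655 mm, which is plate 71 of the Allen atlas. Young 1, young 2, middle 1 and old 1 lay on slide 1, and middle 2 and old 2 on slide 2, so that no young section was on slide 2. The comparison asks which transcripts of the adult forebrain had already moved by 18 months. It covers 1 sex, 1 strain and 1 plane of section. A p-value in the main test sets the difference between ages against the spread between sections of an age, with 2 animals per age. That spread is estimated from the young, middle and old sections together and partly shared across genes.

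Of the 12 genes that passed the test, 4 were on the heat shock list and 2 on the NF-κB list. Inducible heat shock genes encode chaperones that hold and refold damaged proteins, and they are switched on by heat shock factor 1 through short repeated GAA motifs in their promoters. Nfkbia encodes the inhibitor IκBα, which traps NF-κB in the cytoplasm and is itself a target of NF-κB and of the glucocorticoid receptor, so its transcript is part of a feedback loop. In brain, microglia are the resident phagocytes, and with age they are known to raise genes of the TREM2 and TYROBP receptor pathway, complement and antigen presentation.

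The 4 sections held 75248200 to 77557934 UMIs in all, with a median of 25904.5 to 30093 UMIs per spot. Levels are given in CPM, which divides a gene's UMIs by the TMM-scaled total of its section and multiplies by 1000000, and no correction for transcript length was made, so levels are compared between sections and not between genes. Defining markers of brain tissue were abundant in each of them: Snap25 of neurons at 2572 to 2758 CPM and Slc1a2 of astrocytes at 1044 to 1160 CPM. The regional make-up was not the same throughout. By marker genes, 2.45% of the spots of young 1 and 10.5% of young 2 were hippocampal, against 8.52% and 6.71% in the middle sections. The summed level of 20 hypothalamic marker genes was 1186 and 1227 CPM in young against 1878 and 2440 CPM in middle. Of these 20 genes 15 were higher and 5 lower, with a median log2 fold change of 0.24. The largest was 3.03, in the peptide gene Pmch, whose levels are given below and weigh heavily in the sum.

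Of 17673 genes tested, 12 passed an adjusted p of 0.05 in edgeR's quasi-likelihood test (0.0679% of genes), 4 higher (0.0226%) and 8 lower (0.0453%) at 18 months. At an unadjusted p under 0.05, 1382 genes differed (7.82%), 725 higher (4.1%) and 657 lower (3.72%). The median log2 fold change of all genes was -0.0048, with quartiles at -0.083 and 0.084. The ages did not overlap in 6695 genes (37.9%). In 3376 (19.1%) both middle sections lay above both young sections, and in 3319 (18.8%) both lay below. These shares are the background for the counts of gene groups that follow. In a whole section, fewer cells of a type and less RNA per cell cannot be told apart.

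**Figure D1:**
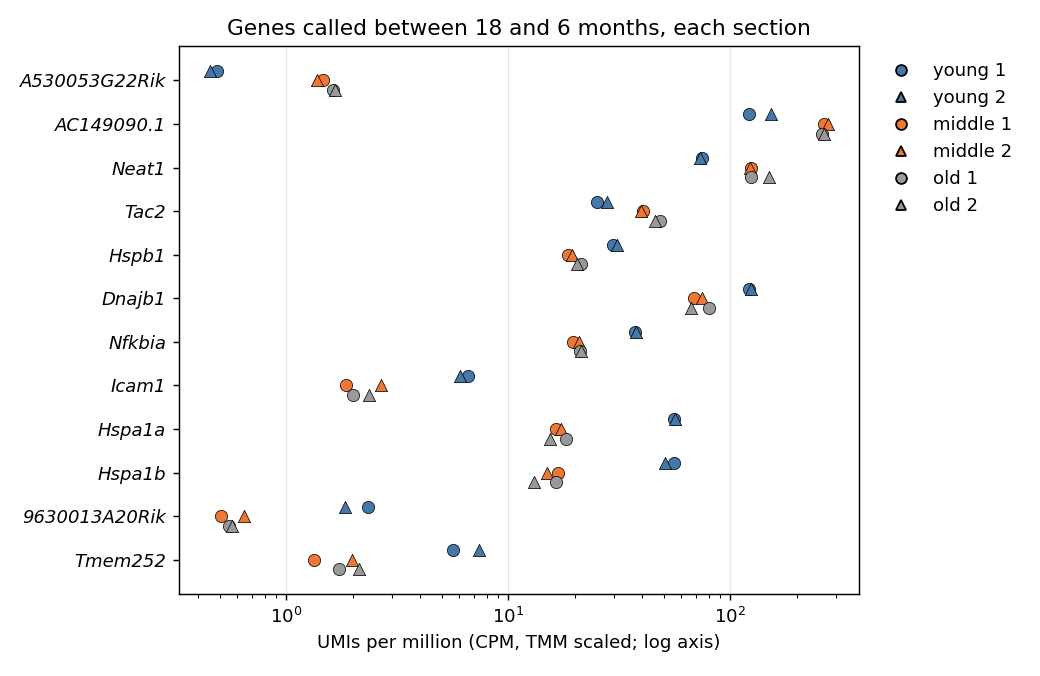
Level of the 12 genes with an adjusted p under 0.05 in each of the 6 sections, in CPM on a log axis, with circles for replicate 1 and triangles for replicate 2. For all 12 the orange middle sections lie to 1 side of the blue young sections, and the grey old sections lie on the same side of the young ones as the middle sections do.

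Hspa1a, a stress-inducible HSP70 chaperone gene, had the smallest adjusted p of the comparison. Hspa1a, on chromosome 17 (34969190 to 34972156, minus strand, GRCm38), was at 55.6 and 56.5 CPM in the young sections and at 16.4 and 17.2 CPM in the middle sections. Its near-identical neighbour Hspa1b (34956436 to 34959238, minus strand) was at 55.7 and 50.6 CPM in young and at 16.7 and 15.0 CPM in middle. For each gene the 2 ages were far apart and the replicates of an age close together, although the split of reads between these copies is uncertain. Hspa1a fell by 1.74 on the log2 scale (SE 0.081, edgeR adjusted p = 0.000465), which is 3.34-fold, and Hspa1b fell by 1.75 (SE 0.112, adjusted p = 0.00705).

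Among the other inducible chaperones, the small heat shock protein gene Hspb1 (chromosome 5, 135887919 to 135889563, plus strand) was at 29.6 and 30.9 CPM in young and at 18.5 and 19.4 CPM in middle. It fell by 0.67 (SE 0.058, edgeR adjusted p = 0.0134). Dnajb1, the HSP40 partner that hands clients to HSP70 (chromosome 8, 83608193 to 83612653, plus strand), was at 122 and 123 CPM in young and at 68.5 and 74.3 CPM in middle. It fell by 0.78 (SE 0.090, edgeR adjusted p = 0.0479). In neither gene did the ages overlap.

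The rest of the heat shock group lay the same way with smaller differences. Of 23 inducible heat shock genes tested, 4 were called lower and none higher, 12 were lower and none higher at an unadjusted p under 0.05, and 21 lay below the young range without overlap. Their median log2 fold change was -0.13, and it stayed between -0.18 and -0.13 over 21 alternative analyses. Hsph1, an HSP70 nucleotide exchange factor, was at 300.2 and 306 CPM in young and 240.0 and 247 CPM in middle (log2 -0.31, edgeR adjusted p = 0.140). Hsp90aa1, the inducible HSP90, had a log2 fold change of -0.17, and Hspa8, the constitutive HSP70, of -0.06, both with adjusted p above 0.5. Hsf1, which encodes the activating factor itself, was at 22.5 and 26.2 CPM in young and at 24.8 and 25.2 CPM in middle, so its ranges overlapped. The ER stress list, which depends on other factors, did not lean one way: 8 of 20 genes were higher and 12 lower, the median was -0.020, and no gene was called.

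The promoters of 3 of the called genes are shown because heat shock factor 1 and NF-κB are known to act through short motifs of this kind. Each stretch is the 250 bases before the start site, from the RefSeq promoter table (GRCm38.p6), 5′ to 3′ on the gene's strand. Capitals mark heat shock elements (GAANNTTC, which reads the same on both strands) in Hspb1 (chr5:135887669-135887918, plus strand) and Hspa1a (chr17:34972157-34972406, minus strand), and the NF-κB consensus in Nfkbia (chr12:55492648-55492897, minus strand).
Hspb1: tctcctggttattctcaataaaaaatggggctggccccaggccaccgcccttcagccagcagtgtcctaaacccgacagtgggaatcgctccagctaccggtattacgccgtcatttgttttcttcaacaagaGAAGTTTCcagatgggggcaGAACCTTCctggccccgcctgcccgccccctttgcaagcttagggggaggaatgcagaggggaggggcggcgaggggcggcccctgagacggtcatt
Hspa1a: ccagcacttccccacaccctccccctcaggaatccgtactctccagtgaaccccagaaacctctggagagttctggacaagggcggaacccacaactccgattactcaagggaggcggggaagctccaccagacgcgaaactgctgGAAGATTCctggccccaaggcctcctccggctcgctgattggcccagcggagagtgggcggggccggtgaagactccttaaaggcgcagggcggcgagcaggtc
Nfkbia: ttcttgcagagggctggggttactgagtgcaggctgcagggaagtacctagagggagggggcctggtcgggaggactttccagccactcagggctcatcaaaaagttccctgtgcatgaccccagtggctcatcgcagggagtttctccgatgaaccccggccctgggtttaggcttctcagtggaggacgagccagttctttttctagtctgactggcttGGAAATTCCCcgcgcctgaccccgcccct
GAANNTTC occurred in 7.86% of the 32851 promoter windows of the table, where a window is 250 bases before to 50 after a start site. Hspb1 had 2 matches, Hspa1a and Hspa1b 1 each at the same distance from the start, and Dnajb1 had none in its windows. The windows of Hspa1a and Hspa1b were 98.7% identical. The NF-κB consensus, searched on both strands, occurred in 4.51% of windows, with 1 match for Nfkbia and none in the window of Icam1. A match is a description of letters, and 10 of the 12 called genes had a window in the table.

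NF-κB feedback and adhesion genes made up a further pair of the calls. Nfkbia (chromosome 12, 55489410 to 55492647, minus strand) was at 37.2 and 37.4 CPM in young and at 19.5 and 20.7 CPM in middle. It fell by 0.89 on the log2 scale (SE 0.054, edgeR adjusted p = 0.00191), or 1.85-fold. Icam1, an adhesion molecule that endothelium displays to leukocytes (chromosome 9, 21015985 to 21028817, plus strand), was at 6.59 and 6.07 CPM in young and at 1.86 and 2.67 CPM in middle. Its fall was 1.48 (SE 0.176, edgeR adjusted p = 0.0479). Both young sections lay well above both middle sections in each gene.

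Other members of the NF-κB list did not move as a block. Of 14 tested, 11 were lower and 3 higher, 2 were called lower, and the median was -0.031. Vcam1, a further leukocyte adhesion gene, was at 27.4 and 23.8 CPM in young and 15.9 and 18.2 CPM in middle (log2 -0.59, edgeR adjusted p = 0.24). Nfkb2, a subunit precursor, lay the other way at 9.70 and 13.1 CPM in young and 15.1 and 15.0 CPM in middle (log2 0.40, adjusted p = 0.55). The subunit genes Rela and Nfkb1 had log2 fold changes of -0.01 and -0.0035.

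Genes known to be induced by glucocorticoids were mostly lower at 18 months. Of 20 tested, 19 were lower, 9 at an unadjusted p under 0.05, and 12 lay below the young range, with a median of -0.20; the call among them was Nfkbia. Sgk1, a kinase that glucocorticoids induce, was at 143 and 174 CPM in young and at 60.9 and 76.2 CPM in middle. Both young sections lay well above both middle sections, but the young sections also differed from each other. The log2 fold change of Sgk1, -1.21 (SE 0.132), did not pass in the main edgeR test (adjusted p = 0.0752). Cdkn1a, which encodes the cell cycle inhibitor p21 and is on the same list, was at 16.0 and 20.6 CPM in young and 10.5 and 12.2 CPM in middle (log2 -0.69, adjusted p = 0.236). The classical targets Fkbp5 and Per1 overlapped between the ages, at 15.3 and 17.4 against 16.0 and 15.4 CPM for Fkbp5 and at 58.8 and 69.7 against 60.0 and 68.7 CPM for Per1.

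Immediate early genes, which neurons switch on within minutes of firing, leaned the same way without a call. Of 20 tested, 18 were lower and 9 lay below the young range, with a median of -0.21 that ranged from -0.32 to -0.064 over 20 alternatives. Arc, which acts at synapses, was at 166 and 236 CPM in young and 137 and 152 CPM in middle. Fos was at 68.5 and 80.2 CPM in young and 54.6 and 57.9 CPM in middle. Npas4, a factor that responds narrowly to neuronal activity, was at 14.8 and 18.8 CPM in young and 15.7 and 20.2 CPM in middle and overlapped.

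**Figure D2:**
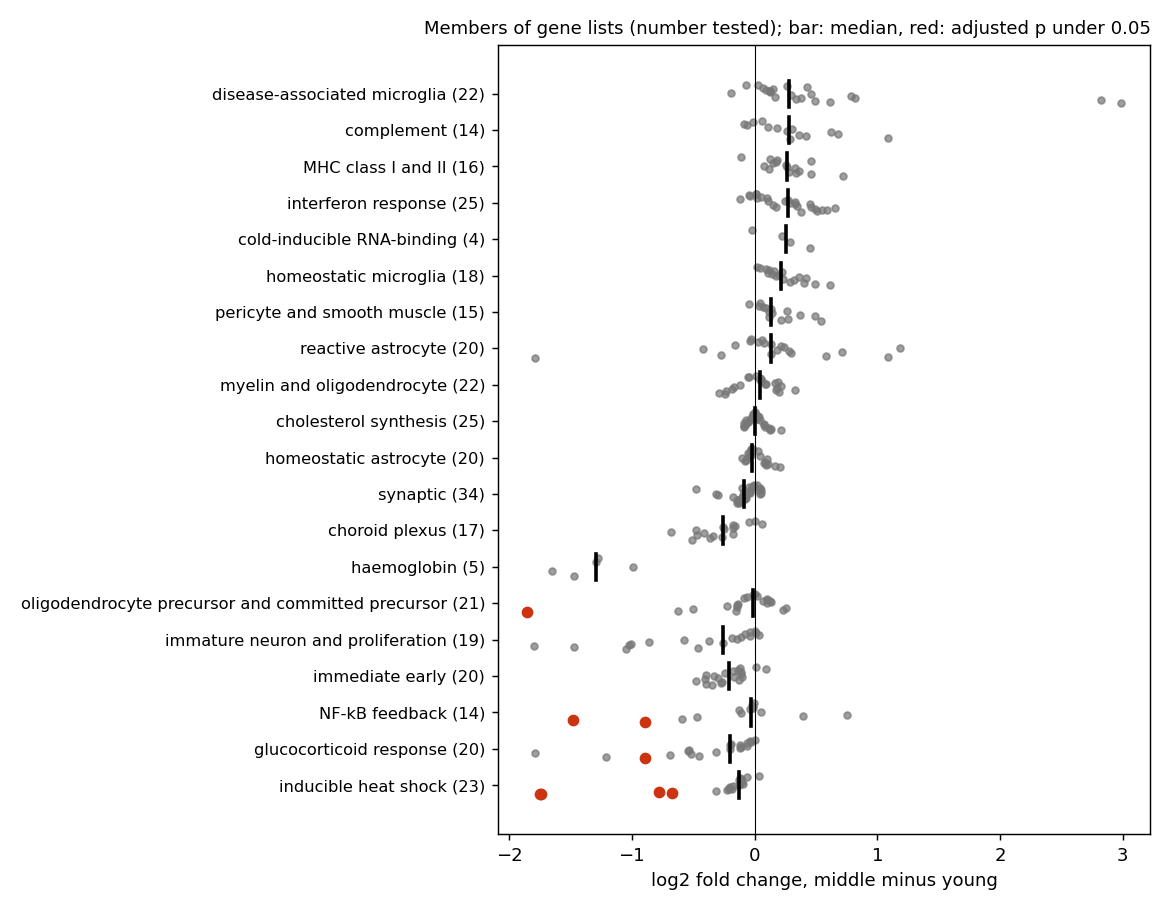
Log2 fold change, middle minus young, of each tested member of 20 gene lists, with a black bar at the list median and red points for an adjusted p under 0.05. Heat shock, glucocorticoid response, immediate early and immature neuron lists have medians below 0, and microglial, complement, MHC and interferon lists have medians between 0.21 and 0.28 with no called member.

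Neat1 and AC149090.1 were among the 4 called genes that rose. Neat1, a long noncoding RNA that builds nuclear paraspeckles (chromosome 19, 5824708 to 5845478, minus strand), was at 74.2 and 72.8 CPM in young and at 123.9 and 123.1 CPM in middle. The replicates of each age nearly coincided. Neat1 rose by 0.75 (SE 0.086, edgeR adjusted p = 0.0479), or 1.68-fold.

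AC149090.1, which GENCODE places on an unplaced scaffold and calls protein-coding, was at 122 and 152 CPM in young and at 263 and 277 CPM in middle. It rose by 0.98 (SE 0.099, edgeR adjusted p = 0.0468); whether a near-identical copy elsewhere in the genome shares its reads was not tested. The list of nuclear long noncoding RNAs did not lean one way: of its 16 genes, which include Neat1 and, despite its annotation, AC149090.1, 9 were higher and 7 lower, with a median of 0.013. Malat1, a neighbour of Neat1 that marks nuclear speckles, varied between replicates at 815 and 376 CPM in young and 587 and 294 CPM in middle.

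The other two genes that rose were A530053G22Rik and Tac2. A530053G22Rik, a noncoding transcript on chromosome 6 (60279043 to 60403707, minus strand), was at 0.485 and 0.451 CPM in young and at 1.45 and 1.38 CPM in middle, from 36, 35, 109 and 105 UMIs. It rose by 1.59 (SE 0.181, edgeR adjusted p = 0.0479). Tac2, which encodes the neuropeptide neurokinin B (chromosome 10, 127724478 to 127731768, plus strand), was at 25.2 and 27.7 CPM in young and at 40.5 and 39.4 CPM in middle. It rose by 0.60 (SE 0.059, edgeR adjusted p = 0.0293).

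The call of Tac2 was kept in 11 of 21 alternatives, with a log2 fold change between 0.40 and 0.67 over them. When each section was reduced to the same 2145 spots, with equal numbers from each marker-defined stratum, the log2 fold change of Tac2 was 0.40 and its adjusted p no longer passed, while the other 11 of the 12 genes kept their calls. Among other hypothalamic peptides, the young sections lay far apart in Pmch and Hcrt. Pmch, of melanin-concentrating hormone neurons, was at 0.66 and 184 CPM in young and 601 and 915 CPM in middle (adjusted p = 0.88), and Hcrt, of orexin neurons, at 1.10 and 77.3 CPM against 162 and 221 CPM (adjusted p = 0.88).

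Both remaining calls were lower at 18 months. Tmem252, a transmembrane protein gene on chromosome 19 (24674008 to 24682233, plus strand), was at 5.63 and 7.39 CPM in young and at 1.33 and 1.98 CPM in middle. It fell by 1.97 (edgeR adjusted p = 0.0479), the largest fall among the 12. 9630013A20Rik, a noncoding transcript used as a marker of newly committed oligodendrocytes (chromosome 14, 84458639 to 84476424, minus strand), was at 2.33 and 1.83 CPM in young and at 0.507 and 0.642 CPM in middle, and its fall was 1.85 (SE 0.213, edgeR adjusted p = 0.0479). GENCODE calls it antisense, and whether the counting used strand is not given in the sources used here.

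Other genes of the oligodendrocyte lineage did not pass. Gpr17, a receptor of committed precursors, was at 14.1 and 19.4 CPM in young and at 11.2 and 10.6 CPM in middle, a log2 fold change of -0.63 that did not pass (edgeR adjusted p = 0.385). Bmp4, another gene of committed precursors, was at 2.32 and 1.85 CPM in young and 1.61 and 1.34 CPM in middle (log2 -0.50). Pdgfra, the receptor that defines precursors, was at 18.2 and 20.0 CPM in young and 18.4 and 19.5 CPM in middle. Over the 21 precursor and committed precursor genes tested, 10 were higher and 11 lower, with a median of -0.011.

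Mature myelin genes showed no common shift. Of 22 myelin and oligodendrocyte genes tested, 14 were higher and 8 lower, none was called, and the median was 0.047. Mbp, a main protein of myelin, was at 3134 and 2773 CPM in young and at 3202 and 2964 CPM in middle, so the ages overlapped.

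Genes of microglia were higher at 18 months as a group, though none passed the adjusted threshold. Of 18 homeostatic microglia genes tested, all 18 had positive log2 fold changes, 11 with an unadjusted p under 0.05, and 15 lay above the young range, against 19.1% of all genes. Their median was 0.21, and it ran from 0.18 to 0.26 over the alternatives. The differences were uneven across members. Trem2, the lipid-sensing receptor, was at 18.2 and 18.9 CPM in young and at 27.3 and 29.4 CPM in middle (log2 0.61, edgeR adjusted p = 0.108), and its adaptor Tyrobp at 58.1 and 53.9 CPM against 75.5 and 82.2 CPM (log2 0.49, adjusted p = 0.141). In contrast P2ry12, a purinergic receptor of resting microglia, was at 26.5 and 27.3 CPM in young and 29.3 and 28.9 CPM in middle, and Csf1r, the survival receptor, at 48.8 and 50.6 CPM against 50.4 and 52.3 CPM.

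Genes of the disease-associated microglial state lay the same way. Of 22 tested, 20 were higher, 8 at an unadjusted p under 0.05 and none lower, and the median was 0.28. Cst7, which encodes a cysteine protease inhibitor, was at 0.242 and 0.206 CPM in young and at 1.45 and 2.11 CPM in middle, and Itgax, which encodes CD11c, at 0.0943 and 0.0773 CPM against 0.707 and 0.524 CPM. These had the largest log2 fold changes of the list, 2.98 and 2.82, from few UMIs, and neither passed (edgeR adjusted p = 0.108 and 0.14). Abundant members differed little: Apoe was at 1597 and 1588 CPM in young and 1742 and 1830 CPM in middle, a log2 fold change of 0.17. Trem2 and Tyrobp are on both microglial lists.

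Complement genes were mostly higher as well. Of 14 tested, 11 were higher, 6 at an unadjusted p under 0.05, and 8 lay above the young range, with a median of 0.28. C4b, the complement component made by glia, was at 24.2 and 16.5 CPM in young and at 43.8 and 42.6 CPM in middle, a log2 fold change of 1.09 (SE 0.240) that did not pass (edgeR adjusted p = 0.460). C1qa, of the initiating complex, was at 68.0 and 68.5 CPM in young and 88.2 and 94.0 CPM in middle. C3, the central component, overlapped at 2.60 and 0.927 CPM in young and 1.55 and 1.77 CPM in middle.

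Interferon-induced and antigen presentation genes were also mostly higher. Of 25 interferon response genes tested, 22 were higher, 8 at an unadjusted p under 0.05, and the median was 0.27. Ifi27 was at 48.7 and 48.8 CPM in young and at 63.0 and 63.5 CPM in middle, a log2 fold change of 0.38 just outside the threshold (SE 0.048, edgeR adjusted p = 0.0671). Bst2, which tethers virus particles, was at 7.93 and 8.07 CPM in young and 11.6 and 11.8 CPM in middle, whereas the interferon signalling genes Stat2 and Irf9 overlapped between the ages. Of 16 MHC class I and II genes, 15 were higher, 3 at an unadjusted p under 0.05, with a median of 0.26. The peptide transporter gene Tap1 was at 1.85 and 2.40 CPM in young and 3.38 and 3.62 CPM in middle, and the class II gene H2-Aa at 2.49 and 2.12 CPM against 2.08 and 2.95 CPM.

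Astrocytes gave a weaker picture. Of 20 reactive astrocyte genes, 14 were higher, 5 at an unadjusted p under 0.05, and 6 lower, 2 of them at that level. Gfap, the intermediate filament of reactive astrocytes, was at 78.2 and 74.5 CPM in young and at 89.1 and 91.1 CPM in middle, a log2 fold change of 0.24 (edgeR adjusted p = 0.792), with no overlap. Serpina3n was at 14.3 and 13.9 CPM in young and 19.9 and 26.5 CPM in middle, and Lcn2, which is acutely induced, lay the other way at 0.62 and 0.67 CPM against 0.24 and 0.131 CPM. Of 20 homeostatic astrocyte genes, 9 were higher and 11 lower, with a median of -0.019.

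Markers of dividing and immature cells were lower. Of 19 tested, 17 had negative log2 fold changes, 9 with an unadjusted p under 0.05, and 12 lay below the young range, with a median of -0.26. Ccnb1, the mitotic cyclin B1, was at 7.36 and 6.53 CPM in young and at 3.38 and 3.35 CPM in middle (log2 -1.04, SE 0.133, edgeR adjusted p = 0.0671). Of its 546 and 507 UMIs in young 1 and young 2, 350 and 363 came from isocortical spots. Top2a, a topoisomerase of dividing cells, was at 0.579 and 0.747 CPM in young and 0.254 and 0.223 CPM in middle. Sox11, a factor of newborn neurons, was at 16.3 and 16.7 CPM in young and 12.1 and 11.9 CPM in middle (log2 -0.46, adjusted p = 0.116), while Dcx, the migration protein of newborn neurons, had a log2 fold change of -0.14. No member passed the adjusted threshold. Within hippocampal spots Sox11 was at 10.5 and 20.2 CPM in young, and within hypothalamic and amygdalar spots at 24.6 and 21.6 CPM. Which cells carried the transcripts of this list was not tested, so the values are no count of dividing or newborn cells.

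Vascular genes leaned higher without a call. Of 23 endothelial genes tested, 15 were higher and 8 lower, with a median of 0.075. Cldn5, the tight junction protein of brain endothelium, was at 48.6 and 44.4 CPM in young and at 63.9 and 59.6 CPM in middle (log2 0.41, edgeR adjusted p = 0.126), and Slc2a1, the glucose transporter of the barrier, lay the other way at 80.0 and 90.5 CPM against 71.0 and 73.9 CPM. Of 15 pericyte and smooth muscle genes, 14 were higher, 11 without overlap, with a median of 0.14. All 5 haemoglobin and erythroid genes lay below the young range, and haemoglobin was 0.00608% and 0.00409% of UMIs in young against 0.00284% and 0.00109% in middle. Haemoglobin was thus lower in middle beside the fall in Icam1 and Nfkbia. In the old sections haemoglobin was 0.00632% and 0.00431% of UMIs, with Icam1 at 2.00 and 2.36 CPM and Nfkbia at 20.9 and 21.2 CPM. The part of haemoglobin in those results was not tested.

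Cold-inducible RNA-binding genes were higher without a call. Rbm3 was at 101.5 and 101.7 CPM in young and at 152 and 125 CPM in middle (log2 0.45, edgeR adjusted p = 0.363), and Cirbp at 63.4 and 65.9 CPM against 82.5 and 75.3 CPM (log2 0.29). Both genes lay above the young range, and 3 of the 4 genes on the list had an unadjusted p under 0.05. Metabolic and translational groups stayed close to the background. The median was 0.026 over 98 nuclear-encoded respiratory chain genes, 0.041 over 78 cytosolic ribosomal protein genes and 0.0016 over 25 cholesterol synthesis genes, and no member of these lists was called. Of 34 synaptic genes, 27 were lower, 8 without overlap, with a median of -0.086.

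Beyond the calls, the 10 genes of smallest p in each direction with a mean of at least 10 CPM and no overlap were read as values that did not pass. Besides Ifi27, Trem2, Tyrobp and Cldn5, the higher ones were Lgals3bp, Bhlhe41, Pcdhb9, Slc5a5, Abca8a and Itgb5. Bhlhe41, a clock repressor, was at 26.8 and 27.9 CPM in young and 35.1 and 35.0 CPM in middle, while the clock activator Arntl was at 27.7 and 32.5 CPM against 24.6 and 24.5 CPM. Besides Sgk1, Sox11 and Hsph1, the lower ones were Ccdc117, P4ha1, Errfi1, Dedd2, Ccn3, Tob2 and Kcng1. Their adjusted p-values in edgeR ran from 0.0671 (Ifi27) to 0.228 (Itgb5).

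The regional breakdown showed where in the section the called genes differed. Each spot was placed in the stratum, out of 8, whose marker genes had the highest mean score in it. The strata are ranges cut from a score and not cell types, and 5.67% to 6.79% of the spots of a young or middle section had a next-best score within 0.1. Middle sections lay between the young ones in their share of hippocampal, striatal and thalamic spots. Hypothalamic and amygdalar spots made up 16.1% and 12.1% of the young sections and 16.6% and 19.0% of the middle ones, and white matter spots 19.4% and 17.2% against 16.1% and 14.3%.

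**Figure D3:**
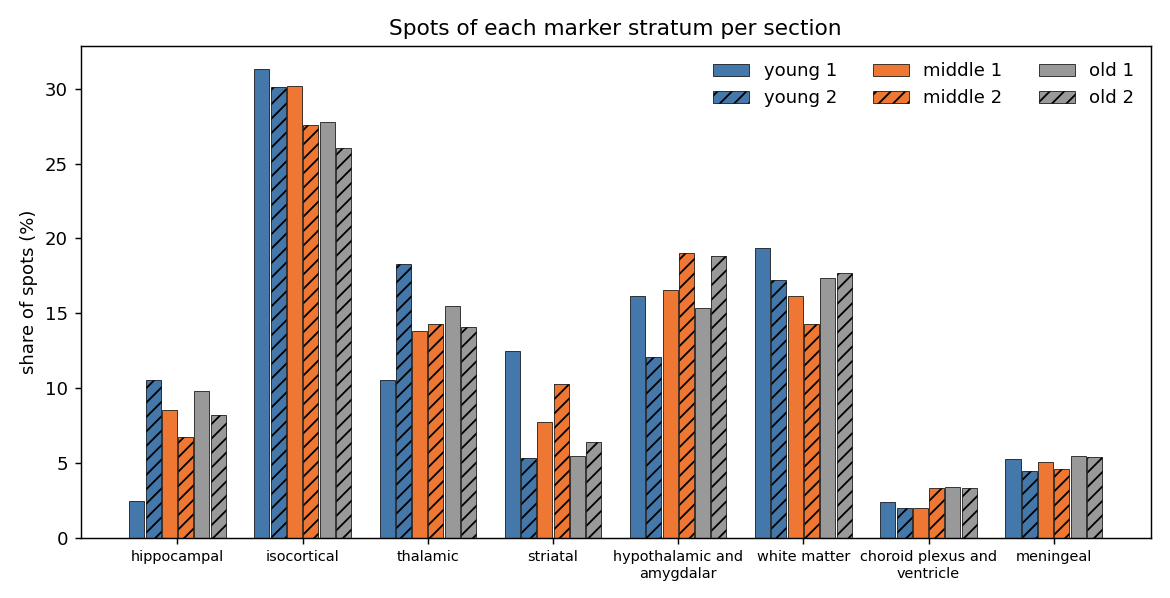
Share of spots of each section, in percent, assigned to each of 8 marker-defined strata, with hatching for replicate 2. Young 1 stands apart with 2.45% hippocampal spots, and both middle sections have fewer white matter and more hypothalamic and amygdalar spots than either young section.

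Of the 12 called genes, 9 had no overlap between the ages in any stratum. Hspa1a, Hspa1b, Hspb1, Dnajb1, Nfkbia and Tmem252 were lower in both middle sections than in both young sections in all 8 strata, a pattern found for 0.13% of the genes tested. Neat1, AC149090.1 and A530053G22Rik were higher in all 8, as were 0.0849% of genes. The 12 genes were called from sums over these same spots, which favoured such a pattern. The strata are therefore no separate check of the calls, and the shares of all genes describe genes that were not selected in this way. Icam1 and 9630013A20Rik were lower without overlap in 6 of 8 strata, and Icam1 overlapped in the hypothalamic and amygdalar and the choroid plexus strata. Within single strata, 11.9% (thalamic) to 15.4% (striatal) of genes were lower without overlap, 13.4% in white matter, and 14.2% (hippocampal) to 22.5% (white matter) were higher. Tac2 was higher in 4 and lower in 2. Stratum levels are CPM of the stratum's own total, without TMM factors. Outside white matter, A530053G22Rik rests on 0 to 13 UMIs per section, with 0 and 0 in young against 4 and 4 in middle hippocampal spots and 1 and 0 against 2 and 2 in meningeal spots. Outside white matter and isocortical spots, 9630013A20Rik rests on 0 to 21 UMIs.

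The size of the Hspa1a difference varied with the region. In the isocortical stratum Hspa1a was at 36.7 and 39.9 CPM in young and at 19.3 and 20.8 CPM in middle, a log2 ratio of -0.94. In the white matter stratum it was at 109 and 158 CPM in young and at 13.6 and 15.7 CPM in middle, a ratio of -3.19. The young sections were thus higher in white matter, choroid plexus and meningeal spots than in isocortical spots, and the middle white matter spots were not above the isocortical ones. Sgk1 was at 413 and 734 CPM in young white matter spots against 96.3 and 156 CPM in middle, and at 85.6 and 98.6 CPM against 54.0 and 64.6 CPM in isocortical spots, so its white matter spots were above its isocortical ones at both ages. Whether the change differed between strata was not tested.

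**Figure D4:**
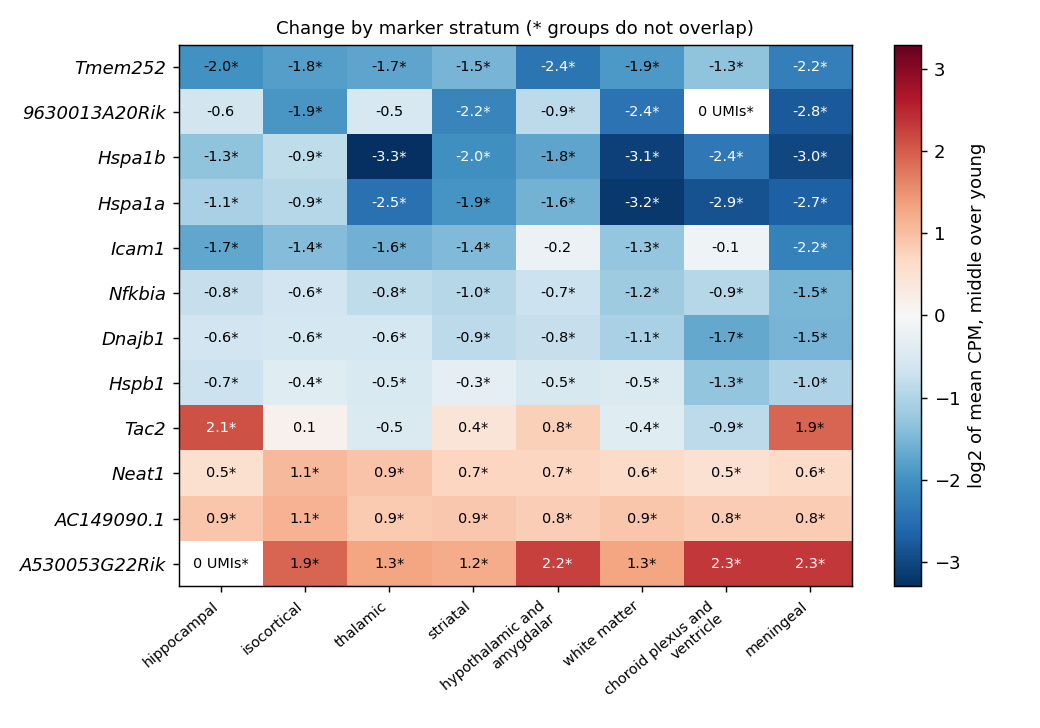
Log2 ratio of mean CPM, middle over young, of the 12 called genes in each of 8 strata, with blue for lower and red for higher in middle; a star marks groups that do not overlap, and cells reading 0 UMIs have no UMI in 1 of the ages. Hspa1a runs from -3.19 in white matter to -0.94 in isocortical spots, and Tac2 changes sign between strata. The 12 genes were called from sums over these same spots, which favoured stars.

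Microglial and glial genes were also spread over the section. Trem2 and Tyrobp were higher without overlap in all 8 strata. In white matter spots Trem2 was at 34.4 and 33.1 CPM in young and at 62.2 and 77.6 CPM in middle, against 14.1 and 16.3 CPM and 18.2 and 18.1 CPM in isocortical spots. C4b was higher without overlap in 5 of 8 strata; it was at 83.5 and 79.5 CPM in young and at 203 and 199 CPM in middle white matter spots. Gfap was higher in 5 and lower in 1, the hippocampal stratum, at 188 and 146 CPM in young and 126 and 138 CPM in middle. Gpr17 was lower without overlap in 4 strata, including white matter, at 32.0 and 58.4 CPM against 22.3 and 16.8 CPM.

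With equal numbers of spots from each stratum, 44 genes were called (0.255% of 17260 tested), 20 higher and 24 lower. They included 11 of the 12 genes above and, among others, Trem2, Tyrobp, Ifi27, Cldn5, Ccnb1, Sox11, Hsph1 and Cst7. These 8 genes lay outside the threshold in whole sections in the main test and inside it with matched regional make-up. All 8 also passed in whole sections, without such matching, with the test program DESeq2 and without a filter on low counts. Why they passed in these settings was not tested.

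The slide was checked by comparing middle 1 alone with the young pair, all on slide 1. In that comparison Hspa1a was the 1 gene called (0.00562% of 17797 tested), with a log2 fold change of -1.78 and an edgeR adjusted p of 0.0396; the fit had 1 residual degree of freedom. Directions were the same for all 12, but middle 1 was part of the comparison that called them. Over all genes tested in whole sections, middle 1 lay outside the range of the young pair in 10606 of 17673 (60%). Slide 1 alone gave -1.67 for Hspa1b, -0.93 for Nfkbia, -0.71 for Hspb1, -0.84 for Dnajb1, -1.77 for Icam1, -2.28 for Tmem252, -2.03 for 9630013A20Rik, 0.76 for Neat1, 0.62 for Tac2, 0.95 for AC149090.1 and 1.64 for A530053G22Rik. With slide as a block over all 6 sections, Hspa1a, Hspa1b and Nfkbia were called and the other 9 were not.

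The calls were made from these same sections, so agreement in side was no separate check of the slide. For all 12 called genes the 2 middle sections, on different slides, lay on the same side of the young mean. They differed from each other by at most 0.57 on the log2 scale, in Tmem252, and the young sections by at most 0.39, also in Tmem252. Icam1, at -1.77 in middle 1 and -1.24 in middle 2, was the other gene with a gap above 0.5. No young section was on slide 2, so age and slide cannot be told apart for middle 2 on its own.

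**Figure D5:**
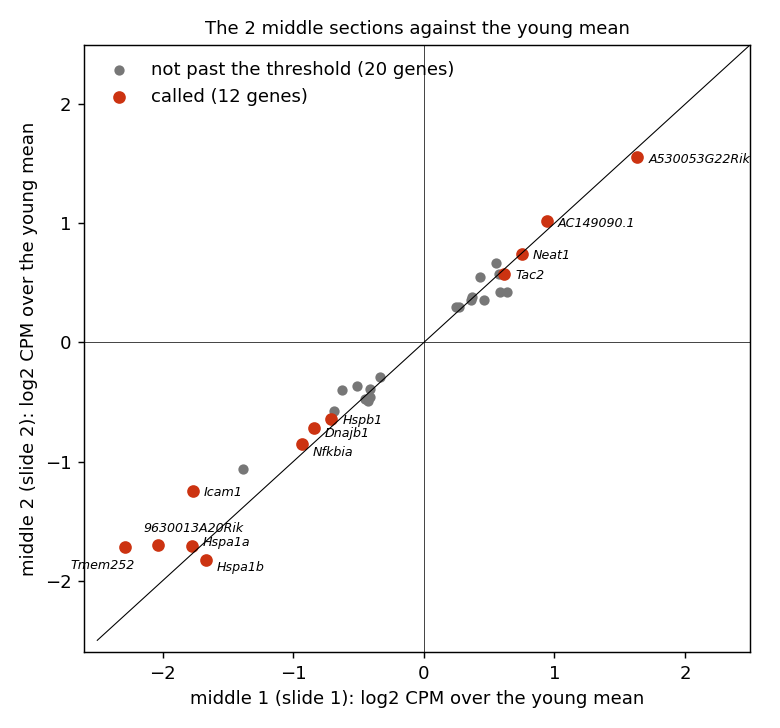
Log2 ratio to the mean of the young sections in middle 1 (slide 1, horizontal) and middle 2 (slide 2, vertical), with a line of equality. Red points are the 12 called genes and grey points 20 genes outside the threshold. The grey genes are the 10 of smallest p in each direction with a mean of at least 10 CPM and no overlap between the ages. Every point has the same sign on both axes. The choice of genes fixed this for the grey points and favoured it for the red ones, which were called from these sections. Tmem252 and Icam1 lie farthest from the line among the called genes.

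The old sections show where these levels stood at 21 months, read side by side because the same young sections serve both ages. Hspa1a was at 18.3 and 15.3 CPM in old, Nfkbia at 20.9 and 21.2 CPM, Dnajb1 at 80.4 and 66.5 CPM and Icam1 at 2.00 and 2.36 CPM, all near the middle values. Neat1 was at 123.5 and 149.9 CPM and AC149090.1 at 258 and 265 CPM. In several of the genes above, both old sections lay above both middle sections. Of these, C4b was at 75.4 and 102 CPM, Gfap at 115 and 172 CPM, and Cst7 at 2.67 and 4.69 CPM. The called genes Tac2 (48.2 and 45.8 CPM) and A530053G22Rik (1.62 and 1.65 CPM) were also of this kind. So were Trem2 (29.85 and 35.67 CPM), Tyrobp (85.5 and 98.1 CPM) and Ifi27 (68.2 and 70.3 CPM). The step from middle to old was not tested here.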

How the data were processed

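Visium 3′ libraries of 6 coronal sections were deposited as raw UMI counts per gene and spot, made by the authors with Space Ranger, for which the file headers give version 1.3.1 and the submitters' processing notes 3.1, with the build mm10. The deposited barcode and feature tables hold other content, namely spot barcodes, gene identifiers and symbols. The aligner settings, the annotation and the use of strand are not given in the sources used here. Gene positions come from GENCODE M21, which matched 32235 of 32285 identifiers.

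Counts were summed over spots with at least 500 UMIs, which left out 1 spot of middle 2 (336 UMIs; the lowest kept spot of a young or middle section held 510). All 6 sections were fitted with edgeR 4.0.16 in R 4.3.3 (robust quasi-likelihood, TMM factors, filterByExpr, age group as the only term, 3 residual degrees of freedom), and a gene was called when its two-sided p, adjusted by Benjamini-Hochberg over all 17673 genes, was under 0.05. CPM values carry the TMM factors. Strata were assigned from the mean scaled expression of marker genes. Sections of 1 age differed beyond sampling noise (chi-square over degrees of freedom, 45.6 for young and 32.6 for middle), so none was counted as a duplicate. The code was run on counts simulated from the model that the test assumes, without slide or regional differences. That run was a check of the code and not of how well the model describes these sections.

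Named genes were every called gene, the 10 further genes of smallest p per direction with a mean of at least 10 CPM and no overlap, the called members, the 2 of smallest p and the 2 most abundant of each of 46 lists, and 10 genes given whatever their values; Arc, Arntl, Bmp4, Bst2, C3, Csf1r, Dcx, Fkbp5, Fos, H2-Aa, Hcrt, Hsf1, Irf9, Itgax, Malat1, Nfkb1, Nfkb2, Npas4, P2ry12, Pdgfra, Per1, Serpina3n, Stat2, Top2a and Vcam1 lie outside that rule and were named after their values were seen. The members, gene lists and tests were chosen with earlier results of these data known. The 21 alternatives included DESeq2 1.42.0, other filters and factors, slide or replicate number as a block, slide 1 alone, equal strata and leaving out each section.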

Additional observations from a re-analysis of the deposited data

How the results depend on the processing

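The 12 calls became 70 with DESeq2 (36 higher, 34 lower), 58 without a filter on low counts (32 and 26) and 44 with equal strata (20 and 24). They became 6 with at least 10 counts in every section or with spots of at least 5000 UMIs (2 higher and 4 lower in each), 8 with the newer quasi-dispersion (5 lower), 8 with the young and middle sections alone (2 higher), 7 with thinned counts (4 lower), 3 with slide as a block (0 higher, 3 lower) and 1 on slide 1 alone or with old 1 added (0 higher, 1 lower; 422 and 437 genes at an unadjusted p under 0.05). RLE factors, all spots, and leaving out mitochondrial, haemoglobin and immediate early genes each gave 12.

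Leaving out each section in turn gave 1 to 33 calls, 0 to 10 higher and 1 to 29 lower. Without young 1 there were 33 and without young 2 there were 19, each with 7 of the 12; without middle 1 Hspa1a was left, without middle 2 Hspa1a and Nfkbia, and without either old section 8 calls, 6 of them among the 12. Where an age keeps 1 section, that section is assumed to vary like the others. Hspa1a was called in all 21 alternatives, Nfkbia in 18, Hspa1b in 17, Hspb1 in 16 and Icam1 in 6, and none of the 12 changed sign. Among genes that did not pass in the main test, Sgk1 passed in 3 of the 21 alternatives. Cdkn1a and Gpr17 passed in 2 each and C4b in 1, with DESeq2 among them for all 4 genes. Vcam1 passed with DESeq2 and with equal strata. Mbp, which was not called, went from a log2 fold change of 0.06 to -0.024 without young 2 and 0.15 without young 1, the lowest and highest values with 1 section left out. The cause of these shifts was not tested.

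Replicate numbers were not taken to pair the sections, since the labels tie them to no shared source. Deviations of same-numbered sections correlated at -0.000841 between young and middle, 0.184 between young and old and 0.336 between middle and old; middle and old sections of the same number also share a slide. With the replicate number as a block, 10 genes were called, 2 higher and 8 lower, 6 of them among the 12.

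With 2 sections per age, 1382 genes (7.82%) reached an unadjusted p under 0.05, and transcripts of low count such as A530053G22Rik rest on 35 to 109 UMIs per section.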

Other observations

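Some transcripts of low level had large ratios; they were chosen after their values were seen. None passed in the comparison as reported, but each passed in some alternatives, DESeq2 among them. Cxcl9, an interferon-gamma-induced chemokine, was at 0.0135 and 0.0129 CPM in young (1 UMI each), 0.307 and 0.537 CPM in middle (23 and 41 UMIs) and 0.0284 and 0.0485 CPM in old (2 and 3 UMIs), so that it was high in the middle sections alone. Cxcl1, a neutrophil chemokine, was at 2.06 and 0.708 CPM in young (153 and 55 UMIs), 0.0400 and 0.0524 CPM in middle (3 and 4 UMIs) and 0.0993 and 0.0485 CPM in old. Ch25h, which makes an oxysterol in activated immune cells, was at 3.80 and 1.62 CPM in young, 0.400 and 0.393 CPM in middle and 0.568 and 0.582 CPM in old. For Cxcl9 the adjusted p was 0.0720, for Cxcl1 0.143 and for Ch25h 0.162 (edgeR). In each the young and middle sections did not overlap, and the young sections lay far apart in Cxcl1 and Ch25h.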
